A study of Drosophila melanogaster with 2 samples.

Results

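The cytosolic ribosomal protein genes of *Drosophila melanogaster* were examined in the indirect flight muscles (IFMs) of control flies and of flies with reduced expression of *blistered* (*bs*), the *Drosophila* ortholog of serum response factor. All genes whose symbol begins with *RpL* or *RpS* and a digit, or with P and a digit in that place, were taken along with *sta*, which encodes the small-subunit protein SA. This rule found 93 of the 13931 genes in the table, of which 54 belong to the large 60S subunit and 39 to the small 40S subunit by their symbols. They fall into 79 protein families, and 13 families hold more than 1 gene, with 27 genes among them. The rule uses no expression value, but the group was chosen with earlier results of these data known.

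The control flies came from a cross of *1151-Gal4* to *w1118* (genotype *1151/+*), and *bs* KD flies from a cross of the same driver to *bs[KK108659]* (genotype *1151>bs[RNAi KK108659]*). The *1151-Gal4* driver acts in the myoblasts that form the adult muscles, so the RNAi was not limited to mature IFM fibers, and a single RNAi line, directed at *bs-RA* and *bs-RC*, was sequenced. Each library pooled the IFMs of 4 females aged 3 days, and the crosses and the adults were kept at 29°C. There was 1 library per genotype, hence no spread between flies could be estimated, and each interval given here covers counting error of estimated reads only.

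Ribosomes translate mRNA with 2 subunits: the 40S subunit binds and decodes the message, and the 60S subunit joins the amino acids and carries the stalk that recruits the translation factors. Each ribosome holds a fixed set of proteins, nearly all in a single copy, and in flies the loss of 1 gene copy for many of them gives the Minute phenotype of slow development and thin bristles. Several *Drosophila* ribosomal protein genes have a second copy, and some of these copies are known for expression in the germ line.

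The *bs* gene itself was at 2.75 TPM (transcript abundance relative to the library, corrected for length) in control and 1.80 TPM in *bs* KD, from 148 and 98.3 estimated reads. The level in *bs* KD was 65.6% of the control value, with a 95% counting interval of the ratio from 0.503 to 0.852. This value sums all *bs* transcripts, and *bs-RB* is not a target of the RNAi line. For *bs-RA* and *bs-RC* the paper reported a larger reduction in flight muscle by qPCR. Total estimated reads were 20955053 in control and 19767477 in *bs* KD. All 8 flight muscle markers were detected, with a summed level of 99131 TPM in control and 80966 TPM in *bs* KD, and *Act88F*, the flight muscle actin, was at 33116 and 7471 TPM. Of these 8 markers 6 had a higher value in *bs* KD, and *Act88F* and *Mhc* had a lower one. Of the markers of other cells, those of trachea (6 of 6 detected) summed to 46.3 and 11.9 TPM, fat body (6 of 7) to 26.4 and 23.5 TPM, glia (3 of 5) to 89.6 and 192 TPM, tubular muscle (3 of 4) to 23.7 and 72.6 TPM, neurons (2 of 7) to 5.46 and 2.56 TPM, hemocytes (1 of 6) to 4.90 and 3.96 TPM and gut (4 of 7, with *lambdaTry* at 0) to 2.51 and 22.2 TPM. The detected markers were all lower in *bs* KD in the trachea and neuron lists, and all higher in the gut and tubular muscle lists. In the glia and fat body lists they went both ways. Among tubular muscle markers, *Act57B* was at 2.08 and 31.5 TPM and *TpnC41C* at 1.96 and 21.3 TPM. *Act79B*, the jump muscle actin, hardly differed, at 18.9 and 19.5 TPM (interval of the ratio 0.912 to 1.17). *Act87E*, not detected, was at 0.755 and 0.208 TPM. In glia *nrv2* was at 10.4 and 84.6 TPM and *moody* at 3.66 and 1.90 TPM. In fat body *Yp1* was at 4.35 and 9.31 TPM and *Lsd-1* at 3.98 and 1.15 TPM. None of 9 germ line or 6 ovary markers was detected: *osk*, *bam*, *piwi*, *bgcn*, *aly*, *dj*, *Cp36*, *Cp38*, *Cp16*, *Vm26Ab* and *Fcp3C* were at 0 in both libraries. Ribosomal protein genes are active in all of these cell types, and the part of other cells in the values below was not tested.

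To learn how much of the muscle transcriptome encodes ribosomal proteins, their TPM were summed. The 93 genes held 81154 TPM in control and 85702 TPM in *bs* KD, or 8.12% and 8.57% of all transcripts. As these transcripts are short, they took a smaller part of the reads, 3.94% and 4.45%. The 60S genes summed to 47460 and 50382 TPM and the 40S genes to 33694 and 35320 TPM, so the ratio of large- to small-subunit transcripts was 1.41 in control and 1.43 in *bs* KD. The 60S subunit has more genes, and medians per gene stood in the opposite order. Among genes at 100 TPM or more the control median was 915 TPM for 60S and 1015 TPM for 40S. In *bs* KD these medians were 998 and 1074 TPM. In bulk muscle, fewer cells of a type and less RNA per cell cannot be told apart.

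The individual genes fell into a large group of closely similar levels and a small group of much lower ones. In each library 81 genes, 48 of 60S and 33 of 40S, were at 100 TPM or more. Their median was 935 TPM in the control, with quartiles of 775 and 1148 TPM, and 1018 TPM in *bs* KD, with quartiles of 862 and 1202 TPM. In both libraries 79 of them were above 500 TPM, and those above 1000 TPM numbered 34 in control and 43 in *bs* KD. When the copies of a family were added up, 77 of 79 families lay within 2-fold of the median family in each library, which was at 954 TPM in control and 1024 TPM in *bs* KD. *RpL41* and *RpL39* were the exceptions, both higher.

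*RpL41*, which encodes a peptide of 25 residues, was the most abundant, at 3468 TPM in control and 3967 TPM in *bs* KD. *RpL39*, whose product of 51 residues lines the tunnel through which the nascent chain leaves, followed at 2245 and 2317 TPM. Next in the control came *RpS29* (1489 and 1422 TPM), *RpS27A* (1480 and 1520 TPM) and *RpS3A* (1473 and 1605 TPM). Below them stood *RpL36* (1434 and 1373 TPM), *RpS23* (1359 and 1513 TPM), *RpS25* (1333 and 1486 TPM) and *RpL27A* (1303 and 1326 TPM). These 7 genes lay so close together that their order in the control was not kept in *bs* KD, where *RpS3A* stood above the other 6. The order over all 81 genes was nonetheless similar in both libraries (Spearman's rho 0.95 across genes, which share the same 2 libraries), and shorter transcripts tended to have higher TPM in the control (rho −0.41). The plot of levels shows the dense group near 1000 TPM and the line of lower copies beneath it.

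**Figure D1:**
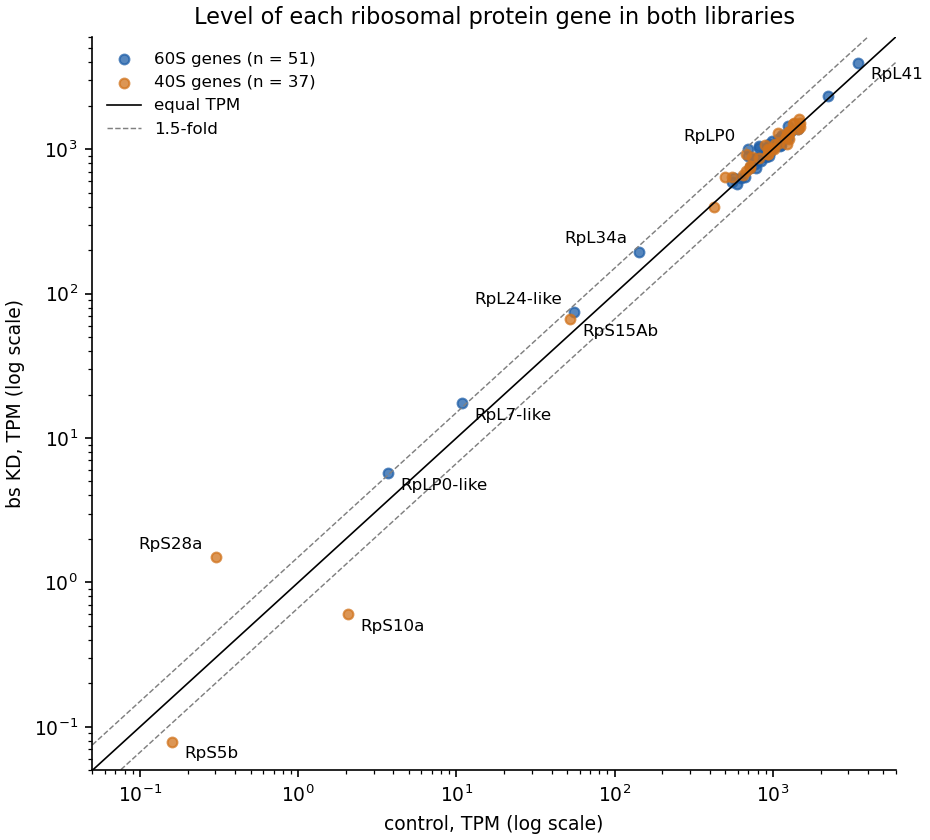
Level of each ribosomal protein gene in TPM in the control library (x axis) and the *bs* KD library (y axis), both on log scales, for the 88 genes above 0 in both. Points are genes, coloured by subunit; the solid line marks equal TPM and the dashed lines 1.5-fold, and the 81 genes at 100 TPM or more all lie between the dashed lines.

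The levels were next compared between the genotypes as the log2 ratio of *bs* KD to control after 1 TPM was added to each value. A gene counted as detected once it reached 1 TPM in either library, as 87 of the 93 genes did, and among these the median change was 0.06, against 0.07 over all 6384 detected genes. Of the 87 genes, 65 had a higher value in *bs* KD (background 55.1% of detected genes) and 22 a lower one. This direction depended on the scale: the 1804 genes that reached 10 TPM in both libraries had a median log2 ratio of 0.13, and relative to that shift the ribosomal protein genes stood at −0.07, with 27 of 87 above it (background 46.1%). A smaller step of 0.32 on the log2 scale, a rise of 25% or a fall of 20%, was also counted, and past it 11 genes were higher (background 34.6%) and 1 was lower (background 26.1%). Past 1.5-fold, *RpL7-like* and *RpS28a* were higher (background 21.3%) and *RpS10a* was lower (background 15.1%). No gene of the 93 passed 2-fold on this scale (background 9.38% higher and 6.05% lower).

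The changes of the 81 abundant genes ran from −0.18 for *RpS3* to 0.52 for *RpLP0*, with a median of 0.05 and an interquartile range of 0.14. The other 381 genes at 100 TPM or more in the control had a median of 0.00 and an interquartile range of 0.67. Of the 81 ribosomal protein genes, 75 (92.6%) stayed within 0.32 in either direction, against 49.3% of those 381 genes. The gap was smaller among the most abundant genes: at 1000 TPM or more in the control, all 34 ribosomal protein genes stayed within 0.32, with an interquartile range of 0.12, and so did 76.1% of the 134 other genes, with an interquartile range of 0.32. Of the 81 genes, 6 were higher past 0.32 (background 20.6% of all 462 genes at 100 TPM or more in the control). None of the 81 was lower past 0.32 (background 22.5%), and none passed 1.5-fold in either direction (background 10.2% higher and 13.6% lower). With 1 library per genotype these figures describe the 2 libraries, and the difference in spread was not tested. The plot of the spread among abundant genes shows both distributions.

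**Figure D2:**
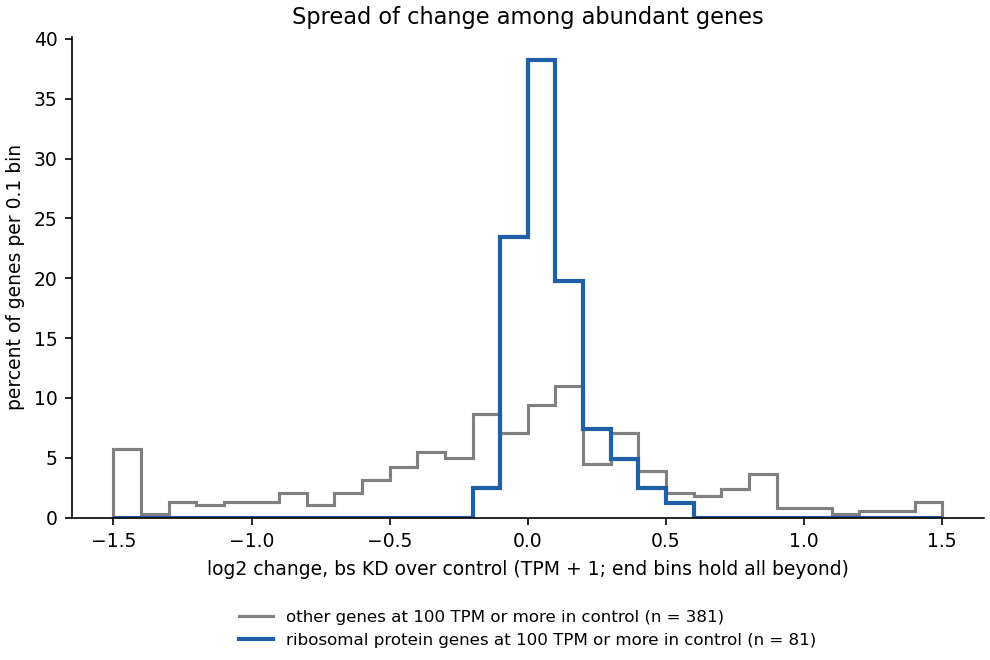
Distribution of the log2 change (*bs* KD over control, TPM plus 1; x axis) in bins of 0.1, as percent of genes (y axis), for the 81 ribosomal protein genes and the 381 other genes at 100 TPM or more in the control. The ribosomal protein genes crowd between −0.18 and 0.52, whereas the other genes spread over the whole axis.

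Counting error was as large as the change in part of these genes. The 81 genes rested on 1317 to 21687 estimated reads in the control, and the counting interval reached a median of 0.04 to either side on the log2 scale. The interval of the TPM ratio lay above 1 for 47 genes and below 1 for 13, and it held 1 for 21. Differences between flies or between dissections are not part of these intervals.

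The changes were also listed by subunit and by chromosome arm, with no test of a difference. Among detected genes the median was 0.07 for 51 genes of 60S and 0.06 for 36 genes of 40S. Among the 81 abundant genes, the medians by arm were 0.05 on 2L (17 genes), 0.05 on 2R (17), 0.04 on 3L (14), 0.03 on 3R (17) and 0.07 on X (15). All genes at this level had medians of 0.03 on 2L, 0.00 on 2R, 0.05 on 3L, 0.01 on 3R and 0.09 on X. The only such gene on chromosome 4, *RpS3A*, had a change of 0.12. The whole group gained 4548 TPM, the balance of 5366 TPM gained by the genes with higher values less the sum of the other genes, which fell by 818.5 TPM. *RpL41*, *RpLP0*, *RpS2*, *RpL15* and *RpS15* together held 27.7% of the 5366 TPM. TPM are shares of each library, so the direction of such a change depends on the scale. The median change of the 87 detected genes was 0.06 on the TPM scale and −0.036 with *Act88F* and the mitochondrial genome left out of the total. With median-ratio scaling this median was −0.066, and with estimated reads scaled to the library total it was 0.16.

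Because the genes are short, their change was set beside transcript length, taken as the effective length that reads and TPM imply. It ran from 189 to 1301 bases in the 81 abundant genes, with a median of 528 bases, against 1689 bases over all detected genes. In these libraries short transcripts generally had higher values in *bs* KD. When all detected genes were divided into 20 classes of length, the 1599 genes of the 5 shortest classes, up to 1018 bases, had a median log2 change of 0.38, and the longest class, with a median length of 6942 bases, had −0.24. Of the 87 detected ribosomal protein genes, 84 belonged to the 5 shortest classes. They did not share the higher values of that size range: 81 of 87 lay below the median of their own class and 6 above it, by a median of −0.33. The classes hold all detected genes and were not matched for level. Whatever their length, the 381 other genes at 100 TPM or more in the control had a median of 0.00. Within the abundant ribosomal protein genes, change and length showed no relation (rho 0.00 across 81 genes). What the length trend over all genes contributes to the values of the ribosomal protein genes was not tested.

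**Figure D3:**
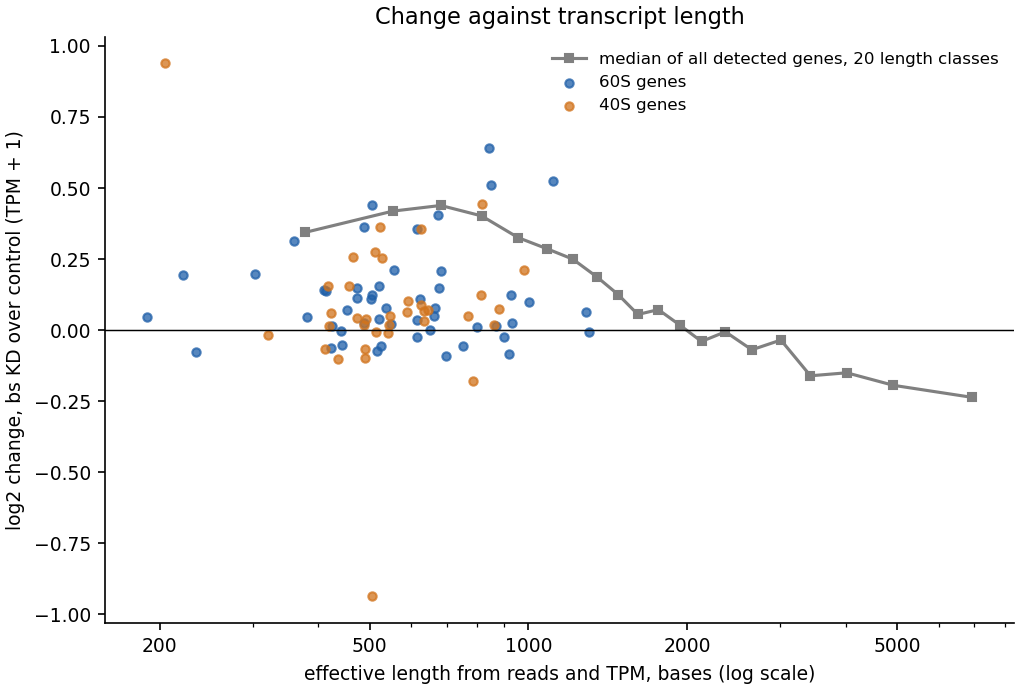
Log2 change (*bs* KD over control, TPM plus 1; y axis) against effective length in bases (x axis, log scale). Grey squares are medians of all detected genes in 20 length classes, running from 0.34 in the shortest class through a maximum of 0.44 to −0.24 in the longest, and points are the 87 detected ribosomal protein genes, 81 of which lie below the median of their class.

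Next, the genes with the highest and lowest changes were examined by role. *RpLP0* encodes P0, the base of the stalk that recruits the translation factors, and lies on 3L from 22075867 to 22077487 of genome Release 6. It was at 695 TPM in control and 999 TPM in *bs* KD, from 14011 and 20304 reads. Its ratio of 1.44 (interval 1.41 to 1.47; log2 change 0.52) was the highest of the 81 abundant genes. Its partners on the stalk differed less: *RpLP1* was at 1124 and 1212 TPM (0.11) and *RpLP2* at 1148 and 1252 TPM (0.12). The control thus had fewer *RpLP0* than *RpLP1* or *RpLP2* transcripts, and in *bs* KD the 3 genes lay closer together.

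*RpS2* encodes a protein at the mRNA entry channel of the 40S subunit and lies on 2L from 9896265 to 9897552. It was at 678 TPM in control and 923 TPM in *bs* KD (log2 change 0.44, ratio 1.36, interval 1.33 to 1.40). *RpS3*, whose product also sits at that channel, had a change of the opposite sign. It lies on 3R from 23358812 to 23360207 and was at 1227 and 1083 TPM, with the lowest change of the 81 genes (−0.18, ratio 0.882, interval 0.864 to 0.902). Another protein of that channel comes from *RpS30*, which was at 1211 and 1223 TPM (0.01). The mean length of *RpS3* transcripts moved from 876 to 893 bases, so the mix of its annotated transcripts differed slightly between the libraries.

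*RpL40* and *RpS27A* encode fusions of ubiquitin with a ribosomal protein, which is cut free after translation. *RpL40* was at 700 TPM in control and 901 TPM in *bs* KD (log2 change 0.36, ratio 1.29, interval 1.245 to 1.331), and *RpS27A* at 1480 and 1520 TPM (0.04). The polyubiquitin genes, which hold the same ubiquitin unit, went in opposite directions: *Ubi-p63E* was at 246 and 444 TPM and *Ubi-p5E* at 1330 and 735 TPM. Stretches that encode ubiquitin are much alike among these genes, so the assignment of reads between them is uncertain.

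The other abundant genes past 0.32 on the log2 scale were *RpS19a*, *RpL15* and *RpL34a*. *RpS19a* encodes a protein of the 40S head whose human counterpart is mutated in Diamond-Blackfan anemia, and it was at 501 and 644 TPM (log2 change 0.36). *RpL15* was at 817 and 1046 TPM (0.36), and *RpL34a* is described with its paralogue. *RpL36A* came just under 0.32, at 820 and 1018 TPM (0.31). *sta*, whose product is the fly counterpart of the laminin receptor precursor, was at 553 and 640 TPM (0.21). All of these lie above the shift of 0.13. Once the median of their length class was taken away, *RpLP0* stood at 0.24, *RpS2* at 0.04 and *RpL34a* at 0.02. *RpL40*, *RpS19a*, *RpL15*, *RpL36A* and *sta* were then below 0, the lowest of them *sta* at −0.11 and *RpL15* at −0.08.

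At the lower end *RpL24* was at 947 TPM in control and 889 TPM in *bs* KD (log2 change −0.09). *RpL23A*, whose product lies at the mouth of the exit tunnel, was at 783 and 738 TPM (−0.08), *RpL29* at 1109 and 1052 TPM (−0.08) and *RpL21* at 1132 and 1076 TPM (−0.07). *RpS29* (−0.07) and *RpL36* (−0.06), whose levels are given above, were also among the lower genes, as was *RpS14b*, described with its paralogue. For each of these genes and *RpS3* the counting interval lay below 1, and in size each change was smaller than those of the top 10.

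Most of the core genes hardly differed. *RpL5* and *RpL11*, whose products form a particle with 5S rRNA before they join the 60S subunit, were at 1254 and 1275 TPM (0.02) and at 904 and 889 TPM (−0.02). *RpL4* and *RpL17*, of the exit tunnel, were at 631 and 628 TPM (−0.01) and at 594 and 572 TPM (−0.06). *RpL32*, long used under the name rp49 as a reference gene in flies, was at 1147 and 1159 TPM (0.02; ratio 1.01, interval 0.982 to 1.04). *RpS6*, the substrate of S6 kinase, was at 1008 and 1020 TPM (0.02), and *S6k* was at 19.1 and 11.8 TPM. For *RpL32*, *RpS6*, *RpL4*, *RpL5* and *RpL11* the counting interval of the ratio held 1.

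**Figure D4:**
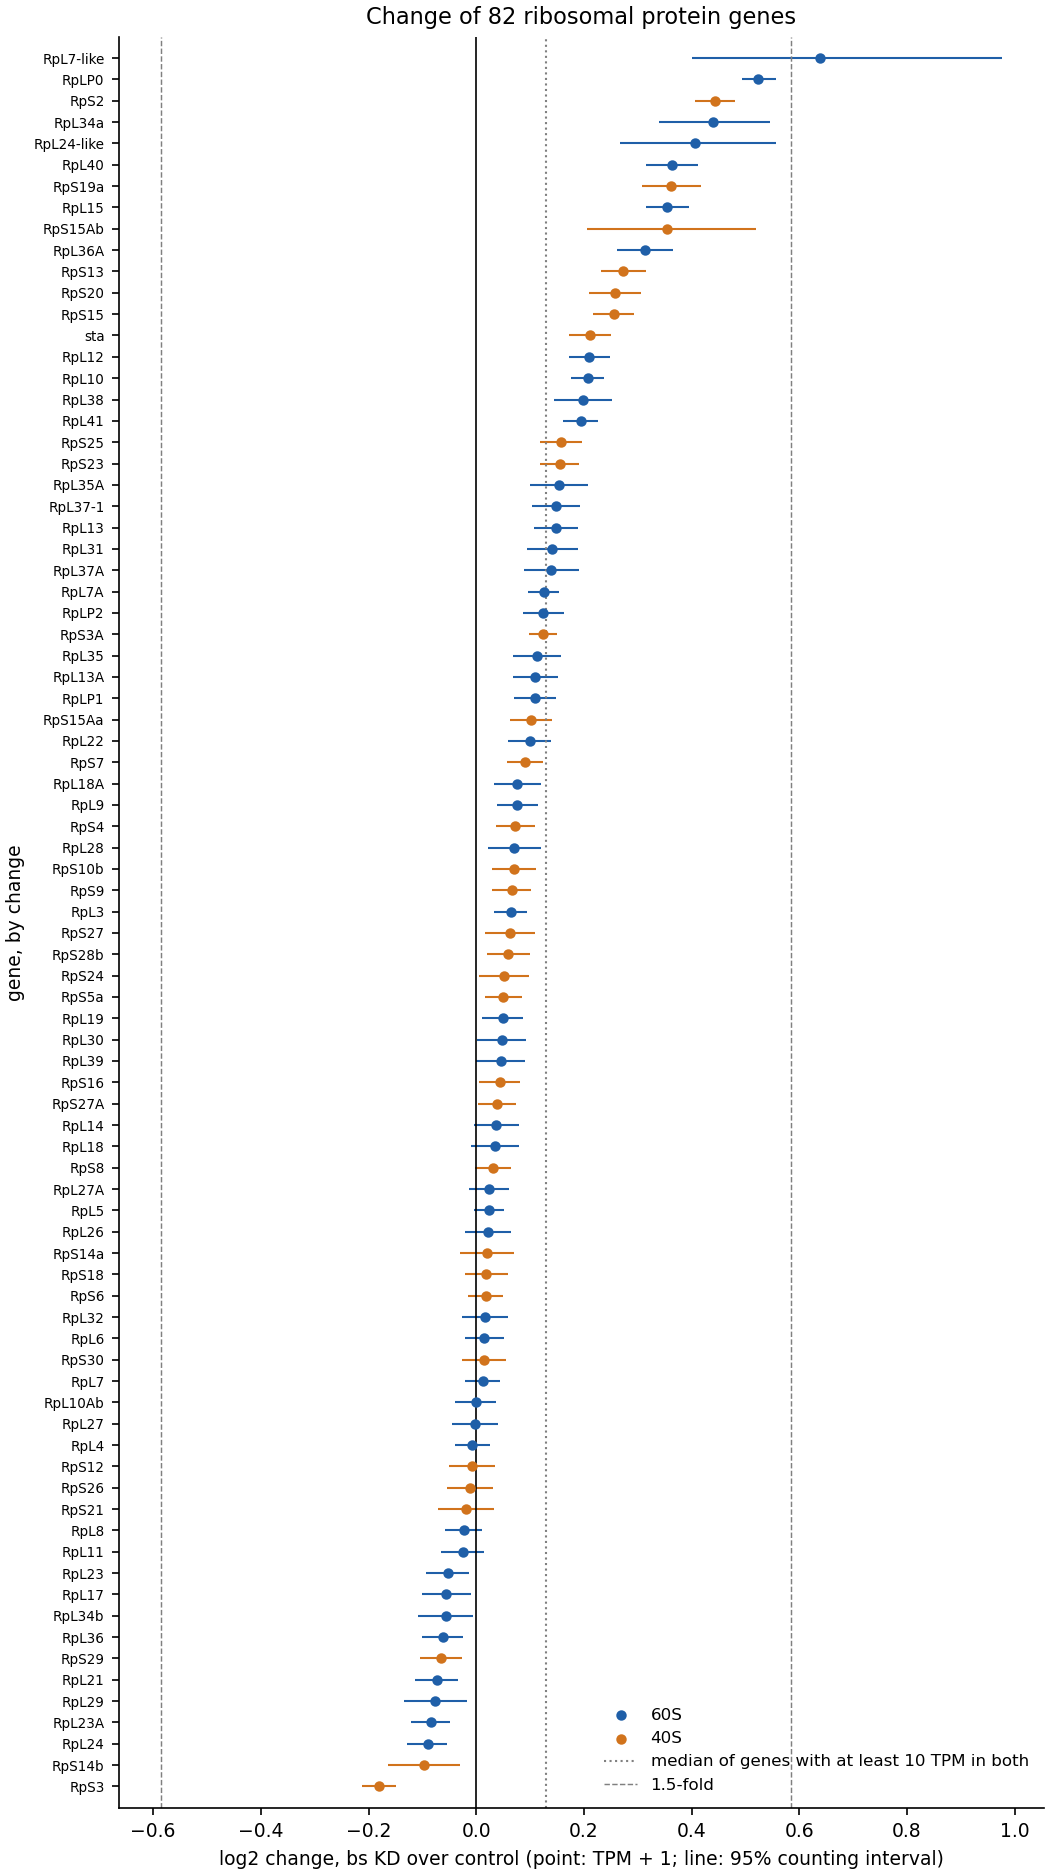
Log2 change (*bs* KD over control; x axis) of 82 of the 84 ribosomal protein genes that reached 10 TPM in either library, in order of change (y axis). Points are values from TPM plus 1, lines are 95% counting intervals of the TPM ratio, colours mark the subunit, the dotted line is the shift of 0.13 and the dashed lines are 1.5-fold; the order runs from *RpS3* at −0.18 to *RpL7-like* at 0.64.

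The paralogues were then compared within their families. The 13 families with more than 1 gene give 14 comparisons of a lower copy with the major copy. The copies are named by their levels in these data, and their order was the same in both libraries in each comparison. Among the lower copies only *RpS14b* and *RpL34a* reached 100 TPM. *RpS14a* and *RpS14b* lie in tandem on X, from 7933742 to 7934677 and from 7934898 to 7935792, with 220 bases between them, and both encode 151 residues. *RpS14a* was at 649 TPM in control and 658 TPM in *bs* KD, and *RpS14b* at 426 and 398 TPM. The share of *RpS14b* was 39.6% (exact binomial interval 38.6 to 40.6%) in control and 37.7% (36.7 to 38.6%) in *bs* KD, while the sum of both copies changed by −0.03 on the log2 scale. These copies are nearly identical, so the split of reads between them is uncertain.

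*RpL34a* (3R, 26058420 to 26059267) and *RpL34b* (3R, 9400237 to 9401226) differed in their changes. *RpL34b* was at 666 TPM in control and 641 TPM in *bs* KD (log2 change −0.06), and *RpL34a* at 143.5 and 195 TPM (0.44). The share of *RpL34a* was 17.7% (interval 16.9 to 18.6%) in control and 23.3% (22.4 to 24.3%) in *bs* KD, and the 2 changes differed by 0.50 ± 0.11 (counting interval). The sum of both copies changed by 0.05, so the family as a whole stayed near the median of the ribosomal protein genes.

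*RpL24-like*, *RpL7-like* and *RpLP0-like* are relatives of ribosomal proteins whose yeast counterparts, Rlp24, Rlp7 and Mrt4, act in assembly of the 60S subunit. On the TPM scale all 3 had higher values in *bs* KD, but relative to the median of their length class *RpL24-like* turned to −0.03, while *RpL7-like* stood at 0.24 and *RpLP0-like* at 0.11. *RpL24-like* was at 55.7 TPM in control and 74.1 TPM in *bs* KD (log2 change 0.41, ratio 1.33, interval 1.20 to 1.47). *RpL7-like* was at 10.8 and 17.4 TPM from 164 and 268 reads (0.64, ratio 1.61, interval 1.32 to 1.97). *RpLP0-like* was at 3.70 and 5.69 TPM from 56.9 and 88.2 reads (0.51, ratio 1.54, interval 1.09 to 2.18). The core genes *RpL24* and *RpL7*, the latter at 1023 and 1032 TPM (0.01), did not share these changes: the difference from the core gene was 0.50 ± 0.15 for *RpL24-like* and 0.63 ± 0.28 for *RpL7-like*. For *RpLP0-like* it was −0.01 ± 0.48, since *RpLP0* was also higher. That sign depends on the 1 TPM added: the plain ratios were 1.54 for *RpLP0-like* and 1.44 for *RpLP0*. The share of *RpLP0-like* in the pair was 0.529% in control and 0.566% in *bs* KD, with overlapping intervals.

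*RpS15Ab*, a copy without introns, was at 51.9 TPM in control and 66.6 TPM in *bs* KD (log2 change 0.36), against 935 and 1004 TPM (0.10) for *RpS15Aa*. Its share of the pair was 5.26% (interval 4.85 to 5.69%) in control and 6.22% (5.81 to 6.67%) in *bs* KD, and the changes differed by 0.25 ± 0.16. *RpS10a*, also without introns, was at 2.07 and 0.606 TPM against 821 and 862 TPM for *RpS10b*. It rested on only 19.0 and 5.58 reads, and its ratio of 0.292 had an interval from 0.103 to 0.817. *RpS28a* was at 0.300 and 1.49 TPM against 1289 and 1343 TPM for *RpS28b*. With 1.12 and 5.58 reads its ratio of 4.97 had an interval from 0.723 to 274, so no difference was detectable at this depth.

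The remaining 6 copies were under 1 TPM in both libraries. *RpS5b*, known for its expression in the ovary, was at 0.159 and 0.0789 TPM beside *RpS5a* at 949.5 and 983 TPM. *RpL22-like*, known from the testis, was at 0 in control and 0.108 TPM in *bs* KD, from 2.23 reads, beside *RpL22* at 552 and 592 TPM. *RpS19b*, *RpL10Aa*, *RpL37-2* and *RpS28-like* were at 0 in both libraries, and their major copies *RpS19a*, *RpL10Ab* (954 and 954 TPM), *RpL37-1* (931 and 1032 TPM) and *RpS28b* were all at 500 TPM or more. A count of 0 allows a share of the pair of up to 0.0586% in control and 0.0453% in *bs* KD for *RpS19b*, 0.0253% and 0.0251% for *RpL10Aa*, 0.0550% and 0.0493% for *RpL37-2*, and 0.0482% and 0.0460% for *RpS28-like* (3 reads, counting error only). In the control 0 reads allow up to 0.0264% for *RpL22-like*.

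**Figure D5:**
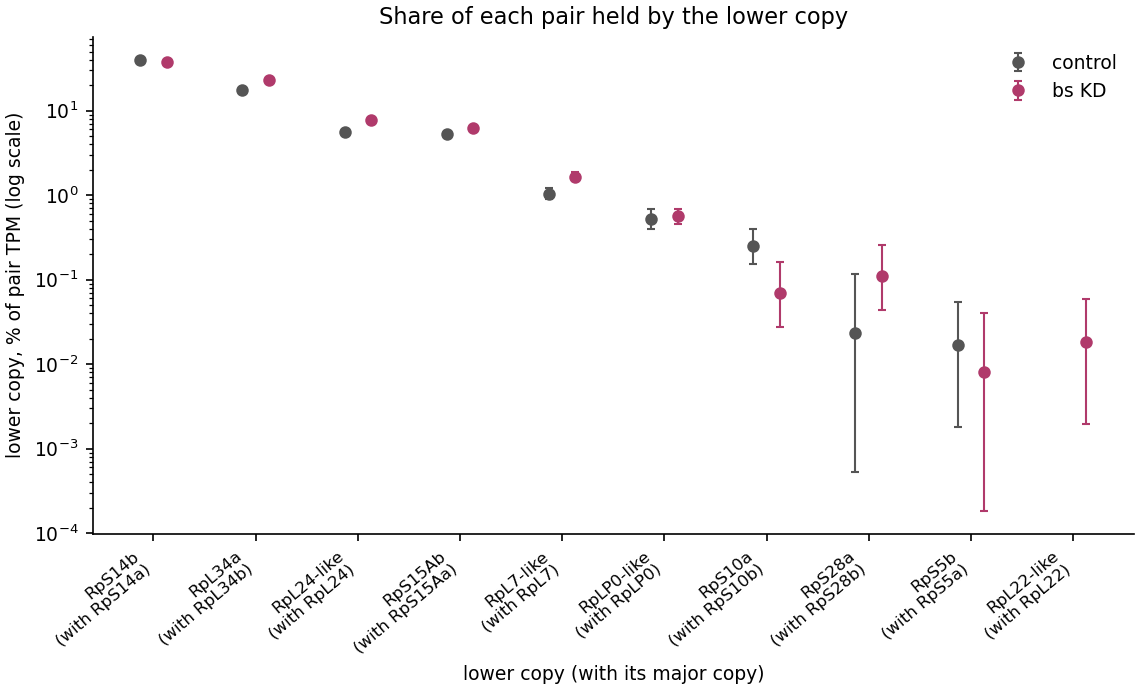
Share of the pair's TPM held by the lower copy (y axis, percent, log scale) for 10 pairs (x axis) in control and *bs* KD, with exact 95% binomial intervals. The share of *RpL34a* was 17.7% in control and 23.3% in *bs* KD, with intervals that do not overlap, and pairs with a lower copy at 0 in both libraries are left out, as is the control value of 0 for *RpL22-like*.

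The genes were compact. The encoded proteins had a median of 156 residues, against 422 over 6333 detected coding genes, with a median of 2 introns against 3, a 5′ UTR of 85 bases against 160 and a 3′ UTR of 150 bases against 278. Of the 93 genes, 6 had no intron (6.45%, against 9.11% of detected coding genes): *RpL10Aa*, *RpL37-2*, *RpLP2*, *RpS10a*, *RpS15Ab* and *RpS28a*. Of these only *RpLP2* was among the 81 abundant genes, and the other 5 were among the 12 genes under 100 TPM in the control.

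Ribosomal protein genes also host small nucleolar RNAs, which guide the modification of rRNA, within their introns. In the annotation 76 snoRNA genes overlap 29 of the 93 genes in position, with 14 at *RpS5a* alone, and all 29 were among the 81 abundant genes. Strand and place within an intron were not checked. The median change of these 29 genes was 0.05, and that of the 52 abundant genes without a snoRNA was 0.06.

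Few changes in mean transcript length were seen, and a switch between transcripts of like length would not show in this measure. For 67 abundant genes with annotated transcripts of more than 1 length, the mean transcript length lay at a median of 1.00% of the way from the shortest to the longest, and 73.1% of these genes lay under 10%. In 293 other genes at this level the median was 18.3%, and 41.6% lay under 10%. Between the genotypes the length moved by over 1% in *RpS3*, *RpS21* and *RpS14b* only, by at most 2.43% (*RpS21*). A total of 25 of the 93 genes overlap another coding gene on either strand, among them *RpL12* and *RpL39*, which share 8 bases at their ends on opposite strands. None of the sources used here says whether the quantification was stranded, so reads in such overlaps cannot be told apart.

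Finally, other genes of ribosome production and function were examined from lists. Of 52 names of ribosome assembly and nucleolar genes, 42 were matched and 29 genes were detected, with a median change of −0.04. Past 1.5-fold, 4 of 29 were higher (background 21.3% of detected genes) and 2 lower (background 15.1%). *Sbds*, needed to release eIF6 from the 60S subunit, was at 6.21 TPM in control and 11.5 TPM in *bs* KD, and *eIF6* itself at 1.93 and 5.82 TPM, whereas *Nop56*, a core protein of snoRNA particles, was at 3.25 and 0.891 TPM. Among the 3 assembly genes with at least 10 TPM, *pix*, which splits ribosomes for recycling, was lowest at 137 and 119 TPM. Of 10 RNA polymerase I genes matched, 7 were detected, all under 10 TPM, with a median of 0.34 and 2 of 7 higher past 1.5-fold (background 21.3%). By any amount 4 of 7 were higher (background 55.1%). The gene at the median, *Polr1H*, rested on 8.93 and 13.4 reads, and the interval of its ratio ran from 0.567 to 3.80. As rRNA was removed by poly-A selection, rRNA itself was not measured.

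Among 20 matched genes that bind ribosomes or regulate translation and ribosomal protein genes, 19 were detected, with a median change of 0.15. Past 1.5-fold, 5 of 19 were higher (background 21.3%) and 2 lower (background 15.1%). *Thor*, which encodes the translation inhibitor 4E-BP, had the highest change, from 140.0 to 503.5 TPM (log2 change 1.84). *Nacalpha*, which binds nascent chains at the ribosome, was at 337 and 563 TPM (0.74). *Xrp1* and *Irbp18*, transcription factors that act together in cells with a ribosomal protein gene mutation, were at 72.5 and 111 TPM (0.60) and at 23.3 and 39.4 TPM (0.73). *S6k* had the lowest change among genes with at least 10 TPM (−0.65). *Rack1*, a protein of the 40S subunit not covered by the naming rule, was at 763 and 778 TPM (0.03), which is in the range of the ribosomal protein genes.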

How the data were processed

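Poly-A-selected RNA of 1 control and 1 *bs* KD library was sequenced by the authors as single-end reads of 100 bases, and quantified with Salmon on Galaxy against release 6.21 of the *D. melanogaster* genome. The authors deposited TPM and estimated counts (estimated reads) per gene, with gene lengths in bases as Salmon gives them. The deposited TPM were used for levels and changes, and the estimated counts, rounded to whole numbers, for intervals. The deposited table also holds columns of the authors' DESeq2 comparison, which were not used: a base mean, log2 fold change, standard error, Wald score, p-value and adjusted p-value for each gene. Versions of Salmon and DESeq2 are not given in the sources used here.

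A pseudocount of 1 TPM was added on the log2 scale. Ratios have exact conditional binomial 95% intervals and shares Clopper-Pearson intervals. PCR copies were not removed by molecular identifiers, so intervals and floors of 3 reads cover counting error only. Symbols (13842 of 13931 genes) and gene structures came from a later Release 6 annotation, matched by gene ID. Reads divided by TPM gave the effective length. Python 3.11.15, pandas 2.3.3 and scipy 1.17.1 were used, and the steps were tested on simulated data. No reference sequences were used here.

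The ribosomal protein genes and the lists were chosen with earlier results of these data known. The rule for genes named was *bs*; the 10 genes highest in the control; the 10 highest and 10 lowest changes among those that reached 10 TPM in either library; all paralogues; *sta*, stalk and ubiquitin-fusion genes; all members under 10 TPM; and the extremes of each list. The results of 2 genes are not reported here singly. Other genes were named after their values were seen. Alternatives covered the pseudocount, scaling, length trend, filter and size of change.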

Additional observations from a re-analysis of the deposited data

How the results depend on the processing

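The median change of the ribosomal protein genes was 0.06 on the TPM scale, and the alternatives moved it in both directions. With median-ratio scaling it was −0.066 (60S −0.058, 40S −0.074, assembly genes −0.14), with 27 genes higher and 1 past 1.5-fold. With upper-quartile scaling it was −0.075 (60S −0.067, 40S −0.082, assembly −0.15), with 27 higher and 1 past 1.5-fold. With *Act88F* and the mitochondrial genome left out of the total it was −0.036 (60S −0.028, 40S −0.044, assembly −0.11), with 35 higher and 1 past 1.5-fold. With the length class median taken away it was −0.33 (60S −0.30, 40S −0.36, assembly −0.16), with 6 higher and 1 past 1.5-fold. With estimated reads scaled to the library total it was 0.16 (60S 0.17, 40S 0.15, assembly 0.018), with 83 genes higher by any amount. Past 1.5-fold on that scale, 2 genes were higher and 0 lower. A pseudocount of 5 TPM left 0 genes higher and 0 lower past 1.5-fold, a filter of 10 TPM left 1 and 0, a size of 2-fold left 0 and 0, and a size of 0.32 on the log2 scale gave 11 higher. Without a filter the assembly genes had a median of −0.083. The share held by ribosomal protein genes was 3.94% and 4.45% by estimated reads, and 11.4% and 11.6% of TPM without the mitochondrial genome, in control and *bs* KD. Scaling moves abundant genes by nearly the same amount, and the cause of the other differences was not tested. No paired analysis was possible because there is 1 library per genotype. Copies under 10 reads, such as *RpS28a*, are limited by depth.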

Other observations

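The deposited gene lengths differ from those that the deposited reads and TPM imply. The deposited effective length was over 10% shorter than the implied one in 3439 genes (57.5% of those at 1 TPM or more in the control) and in 59 of the 81 abundant ribosomal protein genes, by up to 7.88-fold (*RpL15*). Its median over these 81 genes was 271 bases, against 528 bases from reads and TPM. Of genes at 1 TPM or more, 99.1% had an implied length within the range of their annotated transcripts. The deposited TPM, not values recomputed from the deposited lengths, were used throughout.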
